A study of Mus musculus with 9 samples.

Results

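The 10 genes described here mark Sertoli cells, the supporting cells of the testis, or act in the fetal decision to form a testis. They are Sox9, Sox8, Dmrt1, Gata1, Rhox5, Fgf9, Ptgds, Cldn11, Mro and Aard, and they were found by symbol among the 55536 genes listed in each library. They were named as a list, with no threshold on a measured value but with earlier results of these data known. The question they address is whether granulosa cells with mutant Foxl2 take on Sertoli features. RNA-seq libraries were made from dissected mouse ovaries, 3 libraries a group. The tumour group (FOXL2 WT/C134W) was labelled as granulosa cell tumour and the hyperplasia group (FOXL2 WT/C134W) as hyperplasia, so both carried 1 mutant and 1 normal copy of Foxl2. The WT group (FOXL2 WT/WT) had normal copies only. The labels give no age, strain or treatment, and do not say how the mutation was introduced or that each library came from a separate animal.

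Granulosa cells of the ovary and Sertoli cells of the testis arise from the same supporting cell lineage of the fetal gonad. In an XY gonad the Y-linked gene Sry switches on Sox9, which is then kept high by loops that run through Fgf9 and prostaglandin D2, while in an XX gonad Foxl2 and Wnt signalling hold the female state. In adult mice, loss of Foxl2 from the ovary raises Sox9 and turns granulosa cells into cells with Sertoli features, while Dmrt1 holds the male state in Sertoli cells. C134W is a single amino acid change in the forkhead protein Foxl2 and is the hallmark of human adult-type granulosa cell tumours.

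All 10 are protein-coding genes in the GENCODE annotation of GRCm38. Sox9 (ENSMUSG00000000567) lies on chromosome 11 from 112782224 to 112787760, and Dmrt1 (ENSMUSG00000024837) on chromosome 19 from 25505618 to 25604329, both on the plus strand. Fgf9 lies on chromosome 14 (58070547 to 58112720, plus strand), Ptgds on chromosome 2 (25466709 to 25470046, minus strand) and Cldn11 on chromosome 3 (31149920 to 31164324, plus strand). Mro lies on chromosome 18 (73859385 to 73881333), Aard on chromosome 15 (52040107 to 52045722) and Rhox5 on the X chromosome (37804842 to 37808876), each on the plus strand. Sox8 and Gata1 are placed where they are described.

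The libraries held 11661820 to 20890487 counts on genes, which sets the precision of every level below. Levels are in CPM, a count as a share of its library's total on a common scale after TMM scaling, which aligns most genes between libraries, and a floor of 3 counts stood at 0.144 to 0.292 CPM in single libraries. Some libraries stood apart from their group, by Pearson's r of log2 levels across genes, which are not independent replicates. Tumour library 2 had r = 0.898 and 0.908 with tumour libraries 1 and 3, against 0.974 between those. WT library 1 had r = 0.914 and 0.922 with WT libraries 2 and 3, against 0.975 between those. The titles of hyperplasia library 3 and tumour library 3 have the same stem, and the labels do not say whether they share an animal. P-values then measure the spread between these samples, which may in part be technical. Foxl2 itself stood at 268, 227 and 387 CPM in tumour libraries 1, 2 and 3, at 184, 129 and 338 CPM in hyperplasia libraries and at 203, 146 and 178 CPM in WT ovaries, and gene counts do not separate its mutant and normal copies. The granulosa marker Inha, the inhibin alpha subunit, reached 2399, 2816 and 3017 CPM in the tumours, so Foxl2 and Inha were present in all 3 tumour libraries. Whether Inha separates granulosa from Sertoli cells was not tested. Of the other granulosa markers, Esr2 had a lowest tumour value of 163 CPM, above all WT ovaries. Nr5a2, Inhbb and Cyp19a1 fell as low as 168, 48.2 and 2.18 CPM in a tumour library. These lay below the lowest WT values of 261, 161 and 8.71 CPM, though the ranges overlapped. Fshr, the follicle-stimulating hormone receptor of granulosa and Sertoli cells, had 1235, 0 and 961 counts in tumour libraries 1, 2 and 3, so it was not detected in tumour library 2.

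None of the 8 listed genes that entered the edgeR test passed it in any comparison, and Sox9 in tumours passed with DESeq2 alone. With edgeR's quasi-likelihood test over 16213 genes and adjusted p under 0.05 as the threshold, 0 of the 8 members that passed the low-count filter were called in tumours against WT, where 1.60% of all tested genes were called. At an unadjusted p under 0.05 the members counted 3 of 8 (Sox9, Sox8 and Cldn11), beside 20.1% of all tested genes. In hyperplasia against WT the members counted 0 called (background 0%) and 2 of 8 at an unadjusted p under 0.05 (Sox8 and Cldn11), beside 3.53%. In tumours against hyperplasia they counted 0 called (background 0.185%) and 1 of 8 unadjusted (Sox9), beside 14.1%. In both mutant groups together against WT they counted 0 called (background 0.0123%) and 2 of 8 unadjusted (Sox8 and Cldn11), beside 11.8%. The DESeq2 Wald test called 1 of the 8, Sox9 in tumours against WT, where it called 10.8% of all genes. In the other comparisons it called 0 of the 8, beside 0.117% of all genes for hyperplasia against WT, 5.03% for tumours against hyperplasia and 3.65% for both mutant groups against WT. Dmrt1 and Rhox5 did not pass the filter and are described by their counts. These comparisons share the WT or the lesion libraries and are not independent of each other. The list was chosen with earlier results known, so its shares beside those of all genes are a description only.

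**Figure D1:**
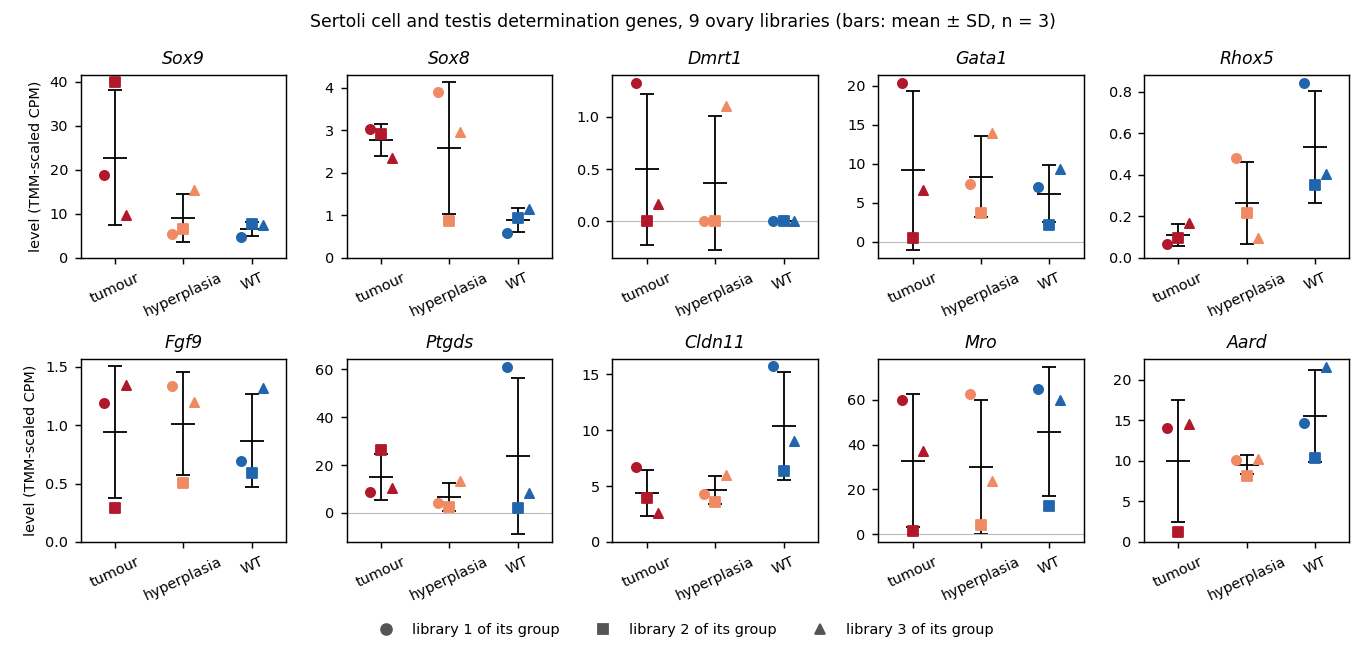
Level of each of the 10 genes (y axis, TMM-scaled CPM) in 9 ovary libraries, grouped on the x axis as tumour, hyperplasia and WT. Points are libraries, with a marker shape for library 1, 2 or 3 of a group, long bars are means and short bars SD (n = 3). Sox9 and Sox8 are the only panels in which the tumour points all lie above the WT points, and in the Rhox5 panel they all lie below.

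Sox9, the transcription factor that starts and maintains Sertoli cell fate, was highest in the tumours. It stood at 18.7, 39.8 and 9.82 CPM in tumour libraries 1, 2 and 3, at 5.45, 6.51 and 15.3 CPM in hyperplasia libraries 1, 2 and 3, and at 4.67, 7.59 and 7.41 CPM in WT libraries 1, 2 and 3. Each tumour lay above each WT ovary, and the lowest tumour lay below the highest hyperplasia library. The means were 22.8 ± 15.4 CPM in tumours, 9.10 ± 5.42 CPM in hyperplasia and 6.55 ± 1.64 CPM in WT ovaries (SD, n = 3 each). The log2 fold change of tumours against WT was 1.80 (SE 0.57, edgeR adjusted p = 0.128), which did not pass the threshold, and the DESeq2 Wald test gave the same 1.80 with an adjusted p of 0.0247. Tumour library 2 weighed most in it: without that library the log2 fold change was 1.13, and without tumour library 3 it was 2.16. In a bulk sample, more RNA per cell and a larger share of cells that hold the RNA cannot be told apart, which applies to each level given here.

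Against hyperplasia, Sox9 in tumours had a log2 difference of 1.32 (SE 0.56, edgeR adjusted p = 0.337). Hyperplasia against WT came to 0.48 (SE 0.56, edgeR adjusted p = 0.999). That value rested on hyperplasia library 3, the highest of its group, and was -0.13 without it. In absolute terms Sox9 was a low gene in every group: per length, its deposited values were 7.15, 9.60 and 4.04 TPM in the tumours, against 1.29, 3.30 and 3.15 TPM in WT ovaries, while median Foxl2 stood at 132 TPM in tumours and 82.0 TPM in WT ovaries. The tumour values in TPM again did not overlap those of WT.

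Sox8, a relative of Sox9 that backs it up in Sertoli cells, had the smallest tumour SD relative to its mean among the tested members. It stood at 3.04, 2.92 and 2.35 CPM in tumours, at 3.90, 0.868 and 2.97 CPM in hyperplasia, and at 0.596, 0.941 and 1.15 CPM in WT ovaries. The tumours all lay above the WT ovaries, and so did hyperplasia libraries 1 and 3, while hyperplasia library 2 lay within the WT range. Its log2 fold change was 1.63 in tumours against WT (SE 0.57, edgeR adjusted p = 0.159) and 1.53 in hyperplasia against WT (SE 0.57, edgeR adjusted p = 0.999). In both mutant groups together against WT it was 1.58 (SE 0.52, edgeR adjusted p = 0.271), and tumours and hyperplasia differed by only 0.10 (SE 0.55, edgeR adjusted p = 0.958). Leaving out each library in turn kept the tumour value between 1.40 and 1.84 and the hyperplasia value between 1.11 and 1.95, so no single library decided its direction. Sox9 and Sox8 were the 2 of 8 tested members whose tumour values all lay above WT, a pattern that 10.6% of all tested genes had.

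The Sox8 gene lies on chromosome 17 (GRCm38, 25565892 to 25570686, minus strand) and shares 329 bases at its 5' end with the antisense gene 2810468N07Rik, which had 43, 13 and 23 counts in tumours, 50, 21 and 79 counts in hyperplasia and 30, 25 and 14 counts in WT ovaries. The kit marks strand, but whether the counting used strand is not given in the sources, so reads of these genes may be mixed in that stretch. The promoter is shown because it lies in this shared stretch and just upstream of it; it runs from 250 bases before to 50 bases after the start (chr17:25570637-25570936, minus strand, RefSeq GRCm38.p6), 5' to 3'.
Sox8: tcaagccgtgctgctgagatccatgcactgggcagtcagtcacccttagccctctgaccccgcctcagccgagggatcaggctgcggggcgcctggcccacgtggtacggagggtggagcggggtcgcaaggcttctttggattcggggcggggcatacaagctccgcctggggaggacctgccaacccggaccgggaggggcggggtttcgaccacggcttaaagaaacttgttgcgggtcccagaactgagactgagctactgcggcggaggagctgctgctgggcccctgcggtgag
It was searched on both strands for 5 short motifs. These were GATA for GATA factors, then ACAAT for the core bound by SOX factors, then TGTTTA for forkhead factors, then AAGGTCA for Nr5a1 and its relatives, and last the CCAAT box. No match occurred in this window, so no base is in capitals. Among 32851 promoter windows of the same length, 57.9%, 31.0%, 13.4%, 4.72% and 37.4% held the 5 motifs in that order.

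**Figure D2:**
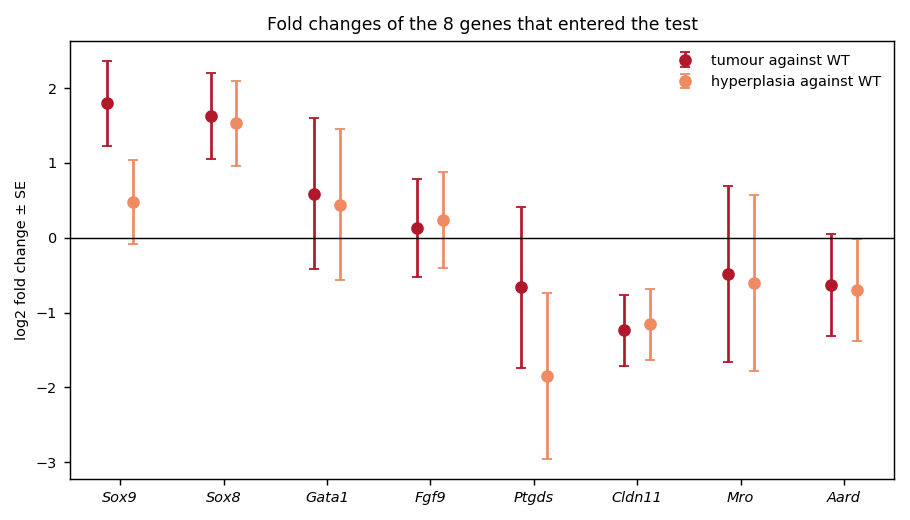
Log2 fold change with its SE (y axis) of the 8 genes that entered the edgeR fit (x axis), for tumour against WT and, to its right, hyperplasia against WT, which share the WT libraries. Sox9 at 1.80 and Sox8 at 1.63 lie highest for tumours, and Cldn11 lies below 0 in both, at -1.23 and -1.16.

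Dmrt1, the DM-domain factor that keeps Sertoli cells from turning into granulosa cells, had counts in lesions only and in few of them. It had 20, 0 and 2 counts in tumours, 0, 0 and 23 counts in hyperplasia, and 0, 0 and 0 counts in WT ovaries. In CPM that was 1.32 in tumour library 1 and 1.10 in hyperplasia library 3, with tumour library 3 under the floor. Taking 3 counts over the WT group as the floor (0.0550 CPM), the tumour mean of 0.497 CPM was at least 9.03-fold higher and the hyperplasia mean of 0.367 CPM at least 6.67-fold higher. Each bound rested on 1 library: without tumour library 1 the tumour mean was 0.0839 CPM, and without hyperplasia library 3 the hyperplasia mean was 0. In a fit without the low-count filter its edgeR adjusted p was 0.225 in tumours against WT and 0.890 in hyperplasia against WT. A level below the floor was not detectable at this depth, which does not show that Dmrt1 was absent.

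Cst9 (testatin), a cystatin-related gene of fetal Sertoli cells, was looked at beside Dmrt1 after its values had been seen. It had 80, 0 and 75 counts in tumours, 0, 2 and 123 counts in hyperplasia, and 3, 0 and 0 counts in WT ovaries. Tumour library 1 and hyperplasia library 3 were again high and tumour library 2 again at 0, but tumour library 3, with 2 counts of Dmrt1, was also high. The edgeR adjusted p for Cst9 in tumours against WT was 0.191, with a log2 fold change of 5.99 (SE 2.31) that rests on a WT group of 3 counts in all and was 8.93 without WT library 1, which held them. No WT library reached the filter's count minimum for Cst9, so it was tested only because lesion libraries held it, which favours a rise.

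**Figure D3:**
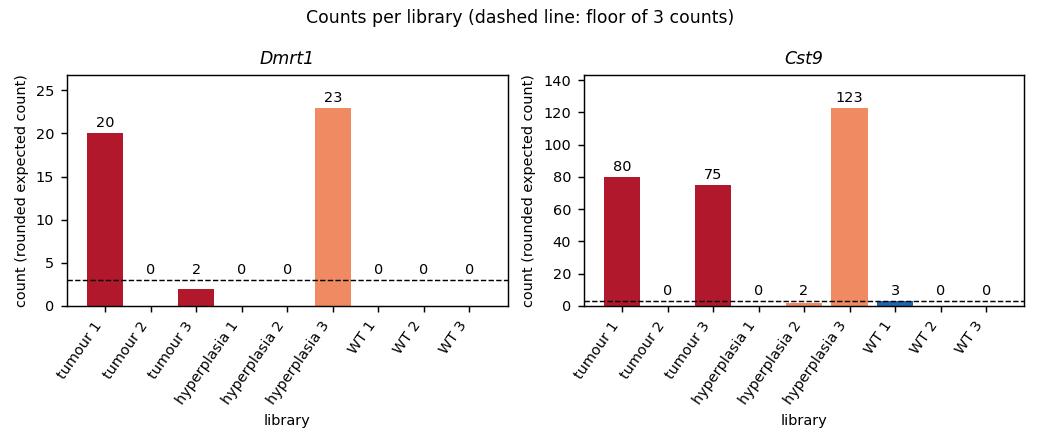
Rounded expected counts (y axis) of Dmrt1 and Cst9 in each library (x axis), with the floor of 3 counts as a dashed line. The bars stand in tumour library 1 and hyperplasia library 3 for both genes and in tumour library 3 for Cst9, and no WT library exceeds 3 counts.

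Gata1 is a zinc finger factor of Sertoli cells in the adult testis and of red blood cell, platelet and mast cell precursors. It stood at 20.4, 0.487 and 6.63 CPM in tumours, at 7.43, 3.62 and 13.9 CPM in hyperplasia, and at 6.95, 2.12 and 9.30 CPM in WT ovaries. The tumours held both the highest and the lowest value of the 9 libraries, and all groups overlapped. For tumours against WT its log2 fold change was 0.59 (SE 1.01, edgeR adjusted p = 0.795). It turned to -0.77 without tumour library 1 and reached 1.14 without tumour library 2. In hyperplasia against WT it was 0.44 (SE 1.01, edgeR adjusted p = 0.999) and turned to -0.14 without hyperplasia library 3.

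Because blood cell precursors also hold Gata1, 12 markers of red cell, platelet and mast cells were summed. Their sums were 111, 469 and 56.3 CPM in tumours 1, 2 and 3, 263, 370 and 92.6 CPM in hyperplasia and 771, 138 and 203 CPM in WT ovaries. Kit, 1 of the 12, had means of 36.3 CPM in tumours, 38.9 CPM in hyperplasia and 46.2 CPM in WT ovaries. Which cells held Kit was not tested, so the sums do not measure blood cells alone. Most of the sum of 469 CPM in tumour library 2 came from the globin genes Hbb-bs (309 CPM) and Hba-a1 (127 CPM), which are carried by mature red cells. Klf1, of red cell precursors, had 1 to 7 counts in any library, and the part of blood cells in the Gata1 levels was not tested. Gp9, of platelet precursors, was at 0 counts in the tumours and in hyperplasia. None of the 8 of 12 blood markers that were tested was called in tumours against WT, where 1.60% of all tested genes were called. The mast cell protease Cpa3 had the largest difference in tumours, a log2 fold change of -4.71 (edgeR adjusted p = 0.0696).

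The Gata1 gene spans 7959260 to 7978071 on the X chromosome (GRCm38, minus strand) and is transcribed from different starts in blood and in Sertoli cells, which gene counts do not separate. The RefSeq window (chrX:7967861-7968160, minus strand, GRCm38.p6) belongs to a start 10161 bases inside the outermost GENCODE start. It is shown because it belongs to only 1 of the 3 annotated transcripts, with a GATA match in capitals, a motif bound by Gata1 itself.
Gata1: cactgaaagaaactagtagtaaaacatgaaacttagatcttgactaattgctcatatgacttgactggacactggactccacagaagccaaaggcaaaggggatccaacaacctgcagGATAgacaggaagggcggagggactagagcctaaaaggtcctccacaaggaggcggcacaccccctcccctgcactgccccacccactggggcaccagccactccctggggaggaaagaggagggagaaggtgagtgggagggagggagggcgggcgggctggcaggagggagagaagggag
It held 1 GATA match and none of the other 4 motifs, and a match describes the letters only.

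Rhox5, an X-linked homeobox gene of Sertoli cells that granulosa cells of the mouse also express, was lowest in the tumours. It had 1, 1 and 2 counts in tumours, 9, 3 and 2 counts in hyperplasia, and 17, 6 and 7 counts in WT ovaries. In CPM these were 0.0661, 0.0974 and 0.168 in tumours, 0.481, 0.217 and 0.0957 in hyperplasia, and 0.844, 0.353 and 0.402 in WT ovaries. Each tumour lay below each WT ovary and under the floor of 3 counts, so its level in tumours was not resolved at this depth. Without the low-count filter the log2 fold change of tumours against WT was -2.24 (SE 0.93, edgeR adjusted p = 0.267), and that of both mutant groups together against WT was -1.62 (SE 0.71, edgeR adjusted p = 0.422). Rhox5 thus lay on the other side of WT from Sox9 and Sox8 in tumours, with no edgeR call for any of the 3.

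Fgf9 and Ptgds act in the signals that sustain Sox9 in the fetal testis. Fgf9, a secreted fibroblast growth factor, stood at 1.19, 0.292 and 1.34 CPM in tumours, at 1.34, 0.507 and 1.20 CPM in hyperplasia, and at 0.695, 0.588 and 1.32 CPM in WT ovaries. All groups overlapped and their means were 0.942 ± 0.568, 1.01 ± 0.444 and 0.868 ± 0.396 CPM in tumours, hyperplasia and WT (SD, n = 3 each). Tumours against WT gave a log2 fold change of 0.13 (SE 0.65, edgeR adjusted p = 0.938), which is smaller than its SE. The processed pseudogene Gm17109 within Fgf9 had 0 counts in all 9 libraries.

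Ptgds, the lipocalin-type synthase that makes prostaglandin D2, varied most within WT. It stood at 8.53, 26.2 and 10.4 CPM in tumours, at 4.22, 2.32 and 13.2 CPM in hyperplasia, and at 61.0, 2.00 and 8.27 CPM in WT ovaries. WT ovaries held both the highest and the lowest value, so the WT mean of 23.8 ± 32.4 CPM (SD, n = 3) describes none of them. The log2 fold change was -0.66 in tumours against WT (SE 1.08, edgeR adjusted p = 0.781) and -1.85 in hyperplasia against WT (SE 1.11, edgeR adjusted p = 0.999). Without WT library 1 these turned to 1.55 and 0.37, so the sign rested on that library. Tumours against hyperplasia, where that library has no part in the fold change, gave 1.18 (SE 1.10, edgeR adjusted p = 0.668).

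The other prostaglandin D synthase, Hpgds, also helps Sox9 into the nucleus of fetal Sertoli cells and is made by mast cells and macrophages. Of all tested genes, 1.60% passed the test in tumours against WT. Hpgds was the only one of 15 tested genes from a further list of 20 Sertoli and testis cord genes that passed, and it fell. It stood at 1.19, 1.36 and 0.587 CPM in tumours, at 14.4, 11.3 and 4.26 CPM in hyperplasia, and at 5.31, 9.06 and 9.19 CPM in WT ovaries. All tumours lay below all other libraries, with a log2 fold change against WT of -2.90 (SE 0.55, edgeR adjusted p = 0.0453). The fold change kept its size when any library was left out, from -3.11 to -2.61, but its adjusted p then stood above the threshold each time, at 0.0607 to 0.128. Markers of macrophages moved with it: the 5 summed to 74.3, 89.7 and 70.0 CPM in tumours, 206, 177 and 154 CPM in hyperplasia and 129, 217 and 216 CPM in WT ovaries, and Itgam, the integrin CD11b of myeloid cells, fell in tumours against WT (log2 fold change -1.65, edgeR adjusted p = 0.0451). The part of such cells in the fall of Hpgds was not tested.

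Cldn11, the claudin that seals the junctions between Sertoli cells in the blood-testis barrier, had the lowest fold change of the tested members in tumours against WT. It stood at 6.68, 3.90 and 2.60 CPM in tumours, at 4.28, 3.62 and 6.03 CPM in hyperplasia, and at 15.7, 6.35 and 9.01 CPM in WT ovaries. Hyperplasia libraries all lay below WT, while tumour library 1 lay just above the lowest WT ovary in CPM. In TPM the tumours, at 2.21 to 5.98, did not overlap the WT ovaries, at 6.59 to 10.3. The log2 fold change was -1.23 in tumours against WT (SE 0.48, edgeR adjusted p = 0.191), -1.16 in hyperplasia against WT (SE 0.47, edgeR adjusted p = 0.999) and -1.20 in both mutant groups together against WT (SE 0.39, edgeR adjusted p = 0.267). Without WT library 1 the first 2 were -0.80 and -0.72. The promoter (chr3:31149670-31149969, plus strand, RefSeq GRCm38.p6) is shown as that of the tested member with the lowest fold change in tumours against WT, with matches of GATA and CCAAT, on either strand, in capitals.
Cldn11: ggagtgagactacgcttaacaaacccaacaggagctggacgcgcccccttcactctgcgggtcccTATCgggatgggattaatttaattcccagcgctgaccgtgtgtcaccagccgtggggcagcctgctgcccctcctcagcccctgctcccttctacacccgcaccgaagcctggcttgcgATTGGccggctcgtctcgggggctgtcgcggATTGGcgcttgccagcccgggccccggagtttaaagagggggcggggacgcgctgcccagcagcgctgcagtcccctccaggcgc
It held 1 GATA match, read as TATC on the other strand, and 2 CCAAT matches, both read as ATTGG, and none of the other 3 motifs. It thus shared the GATA letters with the Gata1 window and no searched motif with the Sox8 window.

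Mro (maestro), a gene first found by its male-biased expression in the fetal gonad, was among the most abundant of the list in WT ovaries. It stood at 60.2, 1.27 and 37.0 CPM in tumours, at 62.8, 3.98 and 23.8 CPM in hyperplasia, and at 64.8, 12.5 and 60.2 CPM in WT ovaries. Every group thus held a low and a high library, and the groups overlapped. The log2 fold change in tumours against WT was -0.48 (SE 1.18, edgeR adjusted p = 0.863), and was 0.088 without tumour library 2. Aard, a small alanine- and arginine-rich protein gene of fetal Sertoli cells, stood at 14.0, 1.27 and 14.6 CPM in tumours, at 10.2, 8.18 and 10.2 CPM in hyperplasia, and at 14.6, 10.3 and 21.6 CPM in WT ovaries. Hyperplasia lay just below WT throughout, and tumour libraries 1 and 3 lay within the WT range. Its log2 fold change in tumours against WT was -0.63 (SE 0.69, edgeR adjusted p = 0.656) and came to -0.11 without tumour library 2, and in hyperplasia against WT it was -0.70 (SE 0.69, edgeR adjusted p = 0.999). With Cldn11 it made 2 of 8 members whose hyperplasia values in CPM all lay below WT, a pattern of 5.18% of all tested genes. In TPM the Aard values overlapped, at 11.9 to 14.9 in hyperplasia and 13.9 to 31.6 in WT ovaries.

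Over the 8 tested members, 4 had a fold change above 0 and 4 below 0 in tumours against WT, with a median log2 fold change of -0.17, beside 0.01 over all tested genes. The same split of 4 and 4 was found in hyperplasia against WT, with a median of -0.18 beside -0.00 over all tested genes. These counts leave out Dmrt1 and Rhox5.

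Tumour library 2 split the list in a way that the other tumours did not. It had the highest Sox9 and Ptgds of the 3 tumours and a Sox8 level like theirs, yet the lowest Gata1, Mro, Aard and Fgf9 and 0 counts of Dmrt1. Genes outside the list, chosen after their values were seen, fell on either side as well. Gdnf, the Sertoli growth factor for spermatogonial stem cells, stood at 11.8, 147 and 22.9 CPM in tumours 1, 2 and 3, while Wt1, a zinc finger factor of early gonads and of granulosa and Sertoli cells, stood at 422, 2.53 and 205 CPM and Nr0b1, the orphan receptor Dax1, at 63.2, 0.292 and 26.5 CPM. In WT ovaries Wt1 was 70.6, 108 and 108 CPM, so tumours 1 and 3 lay above and tumour 2 far below. The 9 markers of ovarian surface epithelium and oviduct followed the same order, with sums of 1697, 1.75 and 565 CPM in tumours, 212, 285 and 669 CPM in hyperplasia and 231, 314 and 252 CPM in WT ovaries. The library with the highest Sox9 thus held the fewest of these transcripts. Hyperplasia library 2 and WT library 2 were also the lowest of their groups for Gata1, Mro, Aard and Fgf9. Their surface epithelium and oviduct sums, at 285 and 314 CPM, were not the lowest of their groups. The part of surface epithelium and oviduct cells in the other members' levels was not tested.

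**Figure D4:**
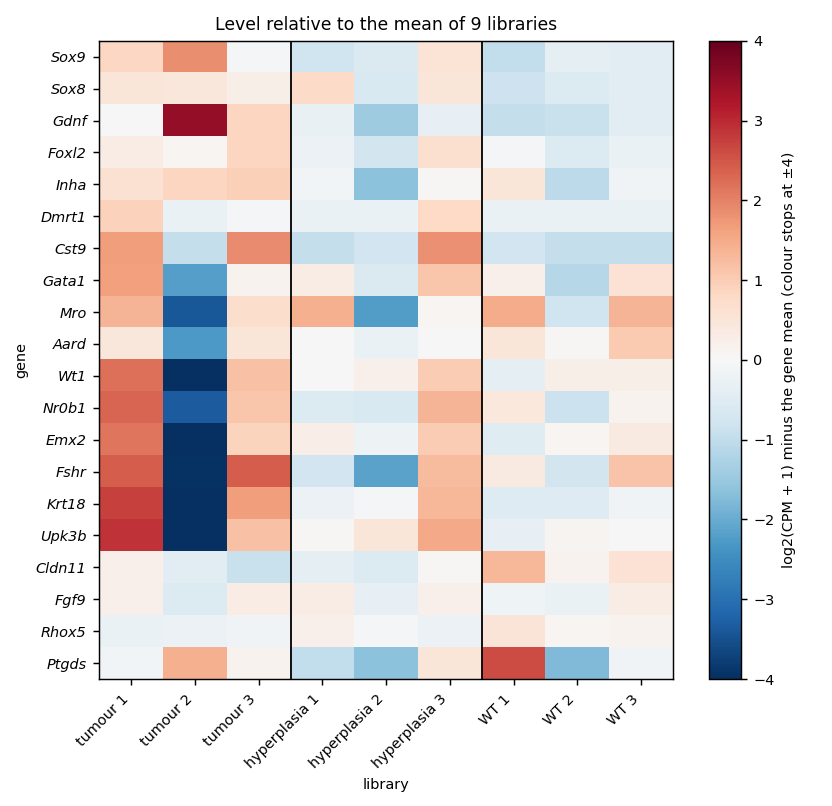
Log2(CPM + 1) of members and other gonad genes (y axis) in each library (x axis: tumour, hyperplasia, WT), minus the mean of the gene over the 9 libraries, with colours that stop at ±4. In tumour library 2, Sox9, Gdnf and Ptgds are red while Gata1, Mro, Aard, Wt1, Nr0b1, Emx2, Fshr and the epithelial genes Krt18 and Upk3b are blue, and WT library 1 is red for Ptgds.

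Per length, in the deposited TPM, Mro headed the members in each group. In tumours the medians ran from Mro (38.1 TPM) through Ptgds (29.7 TPM), Aard (18.2 TPM), Sox9 (7.15 TPM), Gata1 (6.36 TPM), Cldn11 (2.54 TPM), Sox8 (1.39 TPM), Fgf9 (1.07 TPM) and Rhox5 (0.21 TPM) to Dmrt1 (0.14 TPM). Of these neighbours, the ranges of Ptgds and Aard and of Cldn11 and Sox8 did not overlap, and all other neighbours did. In hyperplasia the medians ran from Mro (23.2 TPM), Aard (14.3 TPM) and Ptgds (12.1 TPM) down to Dmrt1 at 0, and every neighbour overlapped the next. In WT ovaries they ran from Mro (45.8 TPM), Ptgds (23.4 TPM), Aard (15.7 TPM), Cldn11 (9.05 TPM), Gata1 (4.87 TPM), Sox9 (3.15 TPM), Rhox5 (1.5 TPM), Sox8 (0.58 TPM) and Fgf9 (0.51 TPM) to Dmrt1, listed at 0. There Aard and Cldn11, Rhox5 and Sox8, and Fgf9 and Dmrt1 did not overlap. Sox9 was the fourth in tumours and the sixth in WT ovaries. Of the 10 genes, 9 had counts in WT ovaries, a tissue without Sertoli cells, and Dmrt1 had none there.

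The genes with the pattern most like that of a member were sought among 13412 genes, by the root mean square difference of log2(CPM + 1) over the 9 libraries, each gene centred on its own mean. For Sox9 they included Mras (0.30) and Hmgcll1 (0.30). Mras stood at 328, 756 and 249 CPM in tumours, against 92.7, 107 and 148 CPM in WT ovaries, with tumour library 2 highest as for Sox9. For Ptgds they were Cmtm2a (0.59), Pla2g5 (0.61) and Cyb5a (0.63), all highest in WT library 1. For Mro they were Ooep (0.82), Cxxc4 (0.83) and Slc26a7 (0.86), all lowest of the tumours in tumour library 2. The likeness was closest for Sox9 and loosest for Mro, and it is a description over 9 libraries of 3 groups.

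Among 15 genes that act on the early gonad or on Sry, 13 were tested and 0 were called in tumours against WT, beside 1.60% of all tested genes. Their median log2 fold change was 0.47, beside 0.01 over all tested genes. An unadjusted p under 0.05 was found for 20.1% of all tested genes and for 1 of the 13. That gene was Map3k4, a kinase needed for Sry expression in the mouse (log2 fold change 0.80, edgeR adjusted p = 0.229). Gata4, a partner of Nr5a1 and Wt1 at gonad promoters, had 0.58 (edgeR adjusted p = 0.397). Sry and 4 other Y-linked genes had 0 counts in all 9 libraries.

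Of the 15 tested genes in the further Sertoli and testis cord list, 12 lay above 0 and 3 below in tumours against WT, with a median log2 fold change of 0.71 beside 0.01 over all tested genes. These counts leave out Sox10, Ptgdr, Col9a3, Cbln4 and Ptgdr2, which did not pass the filter. Mean Sox10, Ptgdr and Col9a3 were lower in tumours (0, 0 and 0.288 CPM) than in WT ovaries (0.186, 0.160 and 0.567 CPM). Mean Cbln4 and Ptgdr2 were higher (0.0220 and 0.450 against 0.0191 and 0.252 CPM). Cst9 and Erbb4, both above 0, passed the filter through lesion libraries alone. At an unadjusted p under 0.05 there were 4 higher and 3 lower, beside 20.1% of all tested genes in either direction. Apart from Hpgds none was called. Gdnf had a log2 fold change of 3.16 (SE 0.86, edgeR adjusted p = 0.0917), with all tumours above the WT values of 5.71, 6.0 and 8.50 CPM, and 1.36 without tumour library 2. Erbb4, a neuregulin receptor, had 3.58 (SE 1.10, edgeR adjusted p = 0.120), from 19, 6 and 70 counts in tumours, against 0, 6 and 5 counts in WT ovaries, and 2.12 without tumour library 3. No WT library reached the filter's count minimum for Erbb4, so it was tested only because lesion libraries held it, which favours a rise. Cyp26b1, the enzyme that breaks down retinoic acid in the fetal testis, had -2.18 (SE 0.50, edgeR adjusted p = 0.0636), with 2.98, 1.75 and 1.51 CPM in tumours, against 4.77, 9.65 and 14.2 CPM in WT ovaries. Amh, the hormone of Sertoli cells that removes the Mullerian ducts and is also made by granulosa cells of growing follicles, stood at 7.80, 0.0974 and 39.3 CPM in tumours, 12.4, 6.59 and 16.3 CPM in hyperplasia and 222, 220 and 210 CPM in WT ovaries (tumours against WT: log2 fold change -3.79, SE 1.17, edgeR adjusted p = 0.121). Without tumour library 3 that fold change was -5.74, and without tumour library 2 it was -3.21. Within the list, testis-linked genes thus lay on both sides of WT. In hyperplasia against WT, 0 of the 15 were called, and 1 of 15 had an unadjusted p under 0.05, beside 3.53% of all tested genes. Their median log2 fold change there was 0.18, beside -0.00 over all tested genes.

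On the ovarian side, 0 of 18 tested genes of ovarian determination and granulosa identity were called in tumours against WT, beside 1.60% of all tested genes. Of these 18, 10 lay above 0 and 8 below 0, with a median log2 fold change of 0.23. An unadjusted p under 0.05 was found for 2 of 18, 1 in each direction, beside 20.1% of all tested genes. Foxl2 had a log2 fold change of 0.74 (SE 0.37, edgeR adjusted p = 0.298), and in CPM all tumours lay above all WT ovaries. In TPM the Foxl2 values overlapped, at 70.4 to 206 in tumours and 72.5 to 97.3 in WT ovaries. Esr2, the oestrogen receptor of granulosa cells, had 1.73 (SE 0.38, edgeR adjusted p = 0.0574), with 231, 182 and 163 CPM in tumours, against 41.0, 50.3 and 81.4 CPM in WT ovaries. Runx1, a factor of fetal granulosa cells in the mouse, had -2.05 (SE 0.81, edgeR adjusted p = 0.198). The list thus lay on both sides of WT, with no edgeR call.

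Markers of other cells were read on the same fit, where 1.60% of all tested genes were called in tumours against WT. Of 6 Leydig cell genes, 5 were tested and 0 called in tumours against WT, with Star and Lhcgr lowest at log2 fold changes of -1.93 and -2.53 (edgeR adjusted p = 0.0647 and 0.0869) and Hsd3b6 highest at 2.82 (edgeR adjusted p = 0.131). Of 10 germ cell and oocyte genes, 8 were tested and 5 fell in tumours against WT: Ddx4, Dazl, Zp1, Zp2 and Zp3 (edgeR adjusted p = 0.0404 to 0.0492). These calls, like those of Hpgds and Itgam, were lost with a term for the shared title stem, without WT library 3 and without tumour library 3, where edgeR called 0 of all genes. Their list summed to 3.70, 5.16 and 2.10 CPM in tumours, 68.6, 16.1 and 4.55 CPM in hyperplasia and 141, 114 and 150 CPM in WT ovaries, with Zp2 and Figla at 0 counts in the tumours. Of 7 stroma and theca genes and 7 tested of 9 surface epithelium and oviduct genes, 0 were called. Oocyte transcripts had their lowest median sum in tumours, the group with the highest mean Sox9 and Sox8 and the lowest mean Rhox5 and Cldn11. Mean Gata1 and Dmrt1 were also highest in tumours, while mean Ptgds, Fgf9, Mro and Aard did not run in order of the oocyte sums. In hyperplasia, where these sums were also below WT, Sox9 overlapped WT, and Sox8 and Cldn11 stood near their tumour means. The part of the oocyte fall in the members' levels was not tested.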

How the data were processed

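The 9 libraries were made from ovary RNA with a stranded TruSeq mRNA kit, per the labels' protocols. RSEM 1.3.1, STAR 2.7.1a, Picard 2.8.1, FastQC and the build GRCm38 stand in the submitters' processing notes without roles. The authors deposited per-gene expected counts, which are not normalised and share reads between similar genes, so 25.58% of values above 0 are not whole. They also deposited TPM values, scaled by the authors for length and depth, and deposited FPKM values that were not used.

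Expected counts were rounded. Gene symbols and coordinates came from GENCODE M21 (GRCm38), to which all 55536 identifiers matched, and promoters from RefSeq (GRCm38.p6), which had a window for 6 of the 10 members. edgeR 4.0.16 (R 4.3.3) was run in 1 fit of 9 libraries and 3 groups, with TMM factors of 0.797 to 1.08, filterByExpr (count minimum 10, total minimum 15) and the quasi-likelihood test, adjusted by Benjamini and Hochberg over 16213 genes at a threshold of 0.05. edgeR's common coefficient of biological variation came to 0.432. The code was tested on simulated data.

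The members and gene lists were chosen with earlier results of these data known. Groups came from the disease state labels. The text names all members, called genes of each list and up to 4 genes per list with the smallest unadjusted p in tumours against WT, and says where a gene was chosen after its values were seen. A few values of genes outside the list are not reported here. Alternatives were DESeq2 1.42.0 size factors and its Wald test, no filter, limma 3.58.1 on log2(TPM + 1) and log2(TPM + 0.1) for genes with a mean of at least 0.5 TPM, a term for the shared title stem, and leaving out each library. Floors cover counting error only.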

Additional observations from a re-analysis of the deposited data

Results flagged for a closer look

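Among the 6 mutant libraries, hyperplasia library 1 stood apart from the others for Rhox5, at 0.481 CPM (9 counts). Its gap to the next library was 0.636 of the whole range, above the critical value of 0.625 for 6 values. Chance alone sets apart about 1 in 20 such groups if their values come from 1 normal distribution. All 10 members were looked at in this way. The 6 values also pool hyperplasia and tumour libraries, and those of Rhox5 rest on few counts, so that rate is a rough guide only. Sox9 in tumour library 2, at 39.8 CPM, came next with 0.614 and did not exceed that value.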

How the results depend on the processing

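Of 408 member fold changes under alternatives, 364 kept their direction and 44 turned, 29 of them on leaving out a library. Only Sox9 in tumours against WT passed the threshold under any alternative, by the DESeq2 Wald test, which makes the count of members called 1; leaving out any library gave 0 throughout. The cause of these changes was not tested. No paired analysis by replicate number was possible because the labels give the groups no shared numbers, and the title stem term ties hyperplasia library 3 to tumour library 3 alone. Levels under the floor of 3 counts (Dmrt1, Rhox5) limit what depth can show.

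For tumours against WT, the number of all genes called (259) was 1747 by the DESeq2 Wald test, 721 without the filter, 0 with the title stem term and 0 to 69 leaving out a library. For tumours against hyperplasia (30) it was 816, 199 and 12 in the same order, 61 and 121 with limma on log2(TPM + 1) and log2(TPM + 0.1), and 0 to 128. For both mutant groups together against WT (2) it was 591, 331 and 0, then 124 and 0 with limma on TPM, and 0 to 134. For hyperplasia against WT (0) it was 19 by DESeq2, 2 without the filter, 1 on log2(TPM + 1), and 0 leaving out any library.

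Fold changes that turned were, on log2(TPM + 1), Ptgds 0.17 and Gata1 -0.19 in tumours against WT, and Sox8 -0.046, Gata1 -0.70, Mro -0.32 and Aard -0.62 in tumours against hyperplasia. On log2(TPM + 0.1) they were Ptgds 0.21, Fgf9 -0.12 and Gata1 -0.61 in tumours against WT, Gata1 -1.22, Mro -0.59 and Aard -0.85 in tumours against hyperplasia, and Gata1 -0.0016 in both mutant groups against WT. With the stem term Fgf9 was -0.10 in tumours and -0.037 in both mutant groups, against WT. Leaving out a library also turned, within these ranges, tumours against WT for Ptgds (-1.33 to 1.55), Gata1 (-0.77 to 1.14), Mro (-1.25 to 0.088) and Fgf9 (-0.19 to 0.56). It turned hyperplasia against WT for Ptgds (-2.85 to 0.37), Gata1 (-0.14 to 0.87), Sox9 (-0.13 to 0.74) and Fgf9 (-0.0067 to 0.66). It turned tumours against hyperplasia for Gata1 (-1.22 to 0.73), Mro (-0.66 to 1.23), Aard (-0.31 to 0.59), Sox8 (-0.34 to 0.52), Fgf9 (-0.43 to 0.31) and Cldn11 (-0.52 to 0.19), and both mutant groups against WT for Ptgds (-1.80 to 0.96), Gata1 (-0.16 to 0.95) and Fgf9 (-0.028 to 0.61). Hpgds, chosen after seeing the data for these alternatives, was also not called on log2(TPM + 1) (-1.77, adjusted p = 0.0847) or with the stem term (-2.53, adjusted p = 0.0523).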
